A study of Mus musculus with 5 samples.

Results

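The circadian clock genes Arntl, Clock, Cry1, Nr1d1, Per1, Per2, Per3, Dbp, Tef and Ciart were followed in single-nucleus RNA of mouse liver. The 10 genes were taken by their symbols from the 32285 genes listed in the deposited matrices. Together they held 163241 of the 179596686 unique molecular identifiers (UMIs, 1 per captured RNA molecule) in the nuclei kept, or 0.0909%. The livers came from wild-type C57BL6/J male mice. The chow group (3 libraries, called Chow 1, Chow 2 and Chow 3) received regular chow. The MASH group (2 libraries, called MASH 1 and MASH 2) received the AMYLIN liver NASH diet, in which fat gave 40 kcal%, fructose 20 kcal%, and cholesterol made up 2%, and which brings on metabolic dysfunction-associated steatohepatitis. Feeding began at an age of 10 to 12 weeks and lasted 5 months, in animals kept under light-dark cycles of 12 h. The hour of tissue collection is not given in the sources used here, nor is whether a library came from a single mouse or a pool, so p-values measure the spread between libraries.

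The mammalian clock is a feedback loop of transcription that runs in nearly every cell. ARNTL (also called BMAL1) and CLOCK form a heterodimer that binds E-boxes and switches on the Per and Cry genes, Nr1d1, Dbp, Tef and Ciart. PER and CRY proteins then block the heterodimer, NR1D1 (REV-ERB alpha) represses Arntl, and DBP and TEF drive further rhythmic genes through D-boxes. In mouse liver Arntl RNA is known to run nearly opposite in phase to Nr1d1 and Dbp, with the Per genes lagging Dbp, so the level of each gene depends on the hour at which a liver is taken. A difference in collection hour between libraries or diets and a difference in the clock itself cannot be told apart in this design.

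Some promoters of the clock genes hold letters that match the elements of this loop, and 4 such stretches are shown so that the E-box, E-prime box and D-box named above can be seen in place. A match is not evidence of binding. They were taken from the 250 bases before RefSeq transcript starts (build GRCm38.p6), which were found for 9 of the 10 genes in 14 windows, not for Per2. Capitals mark the E-box CACGTG, the E-prime box, which is CACGTT or its reverse complement AACGTG, or the D-box TTATGTAA, and both strands were searched. The 4 stretches are all on the minus strand and run 5′ to 3′.
Ciart, chr3:95882242-95882369: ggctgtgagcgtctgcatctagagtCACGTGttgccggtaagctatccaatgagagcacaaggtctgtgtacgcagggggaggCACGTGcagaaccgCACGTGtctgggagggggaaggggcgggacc
Cry1, chr10:85185084-85185158: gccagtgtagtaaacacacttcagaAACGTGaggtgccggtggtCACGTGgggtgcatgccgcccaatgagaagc
Nr1d1, chr11:98775378-98775430: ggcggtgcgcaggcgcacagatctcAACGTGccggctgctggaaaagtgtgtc
Per3, chr4:151044791-151044895: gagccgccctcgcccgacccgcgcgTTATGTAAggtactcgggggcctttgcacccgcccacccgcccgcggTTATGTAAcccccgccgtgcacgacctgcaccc
Ciart held 3 E-boxes, 116, 58 and 44 bases before its start. Cry1 held an E-box at 60 and an E-prime box at 79 bases, Nr1d1 an E-prime box at 28 bases, and Per3 a pair of D-boxes at 205 and 158 bases. E-boxes were found in 4 of the 9 genes with a window (Cry1, Per1, Tef and Ciart), against 6.86% of all 27025 genes with a window of the same length. E-prime boxes were found in 2 genes (4.5% of all genes) and D-boxes, as TTATGTAA or TTACGTAA, in 1 gene (1.1%). The windows of Arntl, Clock and Dbp held none of these. The core of the element bound by NR1D1, TAGGTCA or TGGGTCA, was in the windows of 0 of the 9 genes and of 6.15% of all genes, which says only that these letters are absent from the stretches searched.

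The genes lie on 8 chromosomes in GENCODE M21 (GRCm38). Arntl is at chr7:113207465-113314126 and Dbp at chr7:45705088-45710203, both on the plus strand. Nr1d1 (chr11:98767932-98775333, minus strand) overlaps Thra on the other strand, and Dbp overlaps Sphk2 in the same way. Arntl (Gm45355), Tef (Gm17597) and Ciart (C920021L13Rik) also have a partner on the other strand. Per3 overlaps Camta1, and Clock overlaps Ube2n-ps1 and Gm43658, on the same strand, where reads cannot be told apart by strand. Whether counting used the strand is not stated in the sources used here, and how reads in these overlaps were assigned was not examined.

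Nuclei were clustered anew, since the matrices carry no cell names, and sorted by markers into hepatocyte-like, endothelial-like, stellate-like and immune-like nuclei. Nuclei of other or no class were left out of the lineage sums, unevenly by library. Unnamed nuclei were 21.6% of those kept in MASH 1 and 2.27% to 6.37% in the other libraries. Erythroid nuclei were 9.91% of Chow 2, and cholangiocyte nuclei 12.6% of MASH 2. Hepatocyte-like nuclei numbered 5805, 9138, 8328, 4565 and 4747 in Chow 1, Chow 2, Chow 3, MASH 1 and MASH 2, with 20079310 to 39567868 UMIs a library. The other lineages were far shallower, with 260820 to 745969 UMIs in endothelial-like, 512181 to 2575379 in stellate-like and 290965 to 2632436 in immune-like nuclei. Hnf4a, the defining hepatocyte factor, was part of the rule that named hepatocyte-like clusters, so its higher level there is no check of the name. Alb, a hepatocyte product, averaged 208% to 253% of the hepatocyte-like level in the other lineages. From 23 to 48 cell barcodes were shared by any pair of libraries. Chow 3 stood apart by the acute-phase gene Saa1, at 6780 CPM (counts per 1000000 UMIs of the lineage, before further scaling) in hepatocyte-like nuclei against 102 to 707 in the other 4 libraries. Diet changes, chow ranges and diet overlaps of the clock genes in hepatocyte-like nuclei are given with and without it.

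In hepatocyte-like nuclei Arntl, Clock and Nr1d1 varied least among the chow libraries. Levels in this and the next paragraphs are CPM scaled by the trimmed mean of M values (TMM), in the order Chow 1, Chow 2, Chow 3, MASH 1 and MASH 2. Arntl stood at 37.8, 32.6, 29.4, 16.1 and 19.2 CPM, so that both MASH libraries were below all 3 chow libraries. Clock, the partner of ARNTL, stood at 204, 189, 141, 132 and 151 CPM, and here Chow 3 lay between the MASH libraries. Nr1d1, the repressor of Arntl, stood at 269.6, 219, 207, 214 and 173 CPM, with overlapping diets.

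The repressors of the Per and Cry families moved in different directions between libraries. Per1 stood at 27.6, 69.6, 102 and, in MASH, 50.0 and 64.8 CPM, lowest in Chow 1 and highest in Chow 3. Per2 stood at 44.5, 40.4, 18.0, 72.8 and 61.1 CPM, lowest in Chow 3 and higher in both MASH libraries than in any chow library. Per3 had the same order of diets, at 103, 76.3, 45.8, 143 and 184 CPM. Cry1, the least detected member beside Ciart with 76 to 192 UMIs a library, stood at 6.74, 3.48, 5.08, 3.46 and 4.92 CPM, and its diets overlapped. Ciart, which encodes a further repressor of the heterodimer, stood at 8.81, 25.3, 5.61, 12.9 and 19.2 CPM, with Chow 2 above every other library.

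The output factors of the PAR bZIP family were lowest in Chow 3. Dbp stood at 112, 73.3, 12.0, 131 and 116 CPM. In Chow 3 this rested on 361 UMIs, with a 95% Poisson interval of 10.8 to 13.3 CPM that covers counting error only. Tef stood at 291, 265, 148, 342 and 353 CPM. For both genes the MASH libraries lay above all chow libraries, by a narrow margin for Dbp (116 CPM in MASH 2 against 112 CPM in Chow 1).

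**Figure D1:**
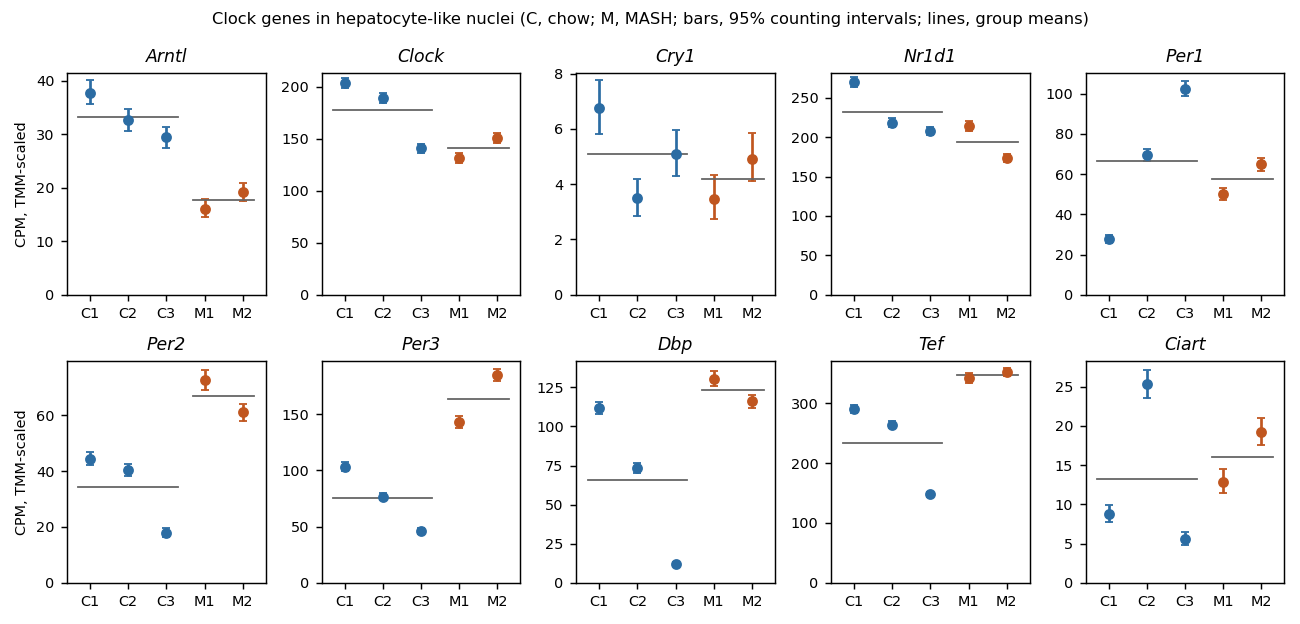
Levels of the 10 clock genes in hepatocyte-like nuclei, as TMM-scaled CPM on a linear axis from 0, with 1 point per library (C, chow; M, MASH), 95% Poisson counting intervals as bars and group means as lines. Chow 3 is the lowest library for Per2, Per3, Dbp, Tef and Ciart and the highest for Per1, and both MASH libraries lie below all chow libraries for Arntl.

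The clock genes differed widely in how much they varied among the chow libraries. The highest chow library exceeded the lowest 9.32-fold for Dbp, 4.51-fold for Ciart, 3.72-fold for Per1, 2.47-fold for Per2 and 2.26-fold for Per3, but 1.29-fold for Arntl, 1.30-fold for Nr1d1 and 1.44-fold for Clock. Between the MASH libraries these ratios ran from 1.03-fold for Tef to 1.49-fold for Ciart. On the log2(CPM + 1) scale the median range over the chow libraries was 1.07 for the 10 genes and 0.59 for all 14872 genes tested, and between the MASH libraries it was 0.28 and 0.17. Of all genes tested, 0.504% had a chow range as large as that of Dbp, 2.78% as large as that of Ciart and 3.62% as large as that of Per1, while 74.1% reached that of Arntl. The ranges of Dbp, Per2, Per3 and Tef depended largely on Chow 3, while those of Ciart and Per1 stayed wide without it. Between Chow 1 and Chow 2 alone the ratios were 1.53-fold for Dbp, 2.87-fold for Ciart, 2.52-fold for Per1, 1.10-fold for Per2 and 1.35-fold for Per3. They were 1.16-fold for Arntl, 1.23-fold for Nr1d1 and 1.07-fold for Clock. Tef went from 1.97-fold over all 3 chow libraries to 1.10-fold, and Cry1 stayed at 1.93-fold without Chow 3. The range of Dbp was then reached by 21.0% of all genes, that of Ciart by 1.87% and that of Per1 by 2.62%, and the median range was 0.37 for the 10 genes and 0.30 for all genes. Fold ranges over 3 chow libraries and over 2 MASH libraries are not of the same kind, and the difference in spread between the diets was not tested.

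The diet contrast asked whether clock transcripts differ between healthy and MASH liver. In hepatocyte-like nuclei 1 of the 10 genes, Arntl, passed edgeR's quasi-likelihood test at a Benjamini-Hochberg adjusted p under 0.05, beside 13.2% of all genes tested. Arntl fell by 0.91 ± 0.24 (SE) on the log2 scale in MASH, from 33.3 ± 4.24 CPM (SD, n = 3) to 17.7 ± 2.22 CPM (SD, n = 2), with an edgeR adjusted p of 0.0479. No member was called higher, beside 8.8% of all genes, and 1 was called lower, beside 4.44%. The median log2 fold change was 0.03 for the 10 genes and -0.02 for all genes. The median absolute change was 0.45 for the 10 genes and 0.57 for all genes.

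The call of Arntl was close to the threshold. It was kept without Chow 3, where the change was -1.03 (edgeR adjusted p = 0.0238). It was lost without Chow 1 (adjusted p = 0.0537), Chow 2 (0.0872), MASH 1 (0.367) or MASH 2 (0.284), each from edgeR, with changes of -0.80 to -1.04. TMM multiplied the UMI totals of hepatocyte-like nuclei by factors from 0.761 for Chow 3 to 1.19 for MASH 2. With library totals alone, an alternative added after the data were seen, Arntl stood at 40.7, 30.4, 22.4, 17.6 and 22.9 CPM, the diets overlapped, and its change was -0.62 (edgeR adjusted p = 0.247). That scaling moved the median change of all genes from -0.02 to 0.29 and the share of higher genes among those called from 66.5% to 81.4%.

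Per3 and Per2 came next. Per3 had a log2 change of 1.12 ± 0.36 (SE), from 75.1 ± 28.8 CPM (SD, n = 3) to 164 ± 29.4 CPM (SD, n = 2), with an edgeR adjusted p of 0.0780. It was called by DESeq2 (adjusted p = 0.0345) and, in edgeR, with no filter on low counts (adjusted p = 0.0433), with Storey q-values (q = 0.0369) and without Chow 1 (adjusted p = 0.0371). Per2 had a log2 change of 0.97 ± 0.38 (edgeR adjusted p = 0.128) and was called by no alternative, where the adjusted p ran from 0.0606 to 0.468. Without Chow 3 the changes of Per3 and Per2 were 0.83 and 0.62 (edgeR adjusted p of 0.0678 and 0.0801). With totals alone the changes of Per3 and Per2 were 1.38 and 1.21.

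The remaining members gave no call in this contrast under any alternative. Dbp had a change of 0.91 ± 0.73 (SE, edgeR adjusted p = 0.419), and without Chow 3 the change was 0.38 (edgeR adjusted p = 0.341). Tef had a change of 0.57 ± 0.34 (edgeR adjusted p = 0.281) and 0.29 without Chow 3. Clock, Cry1, Nr1d1 and Per1 had changes of -0.33, -0.28, -0.26 and -0.21, with standard errors of 0.26 to 0.50, and the sign of the last 3 turned with totals alone. Without Chow 3 the changes of Clock, Cry1 and Nr1d1 were -0.51, -0.31 and -0.37. Ciart had a change of 0.28 ± 0.60 (SE, edgeR adjusted p = 0.780), and Per1 and Ciart turned sign without Chow 3, to 0.21 and -0.12.

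The libraries of the diets did not overlap for 5 of the 10 genes, with Per2, Per3, Dbp and Tef higher and Arntl lower in MASH, beside 54.4% of all genes tested. Without Chow 3, at the same scaling, 7 of the 10 did not overlap, with Clock and Nr1d1 also lower in MASH, beside 63.6% of all genes. With totals alone 4 of the 10 did not overlap. Over all nuclei kept, without lineage names, none of the 10 genes was called by edgeR beside 15.9% of all genes, and 1 had an unadjusted p under 0.05. DESeq2 called none either, and 2 had an unadjusted p under 0.05. There Arntl had a log2 change of -0.66 ± 0.24 (SE, edgeR adjusted p = 0.0966).

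The ratio of Arntl to Dbp UMIs sets an activator against an output of opposed phase within 1 library, so that it does not depend on scaling. In hepatocyte-like nuclei it was 0.338 (95% exact binomial interval 0.315 to 0.363) in Chow 1, 0.445 (0.413 to 0.480) in Chow 2 and 2.45 (2.17 to 2.78) in Chow 3. It was 0.123 (0.110 to 0.138) in MASH 1 and 0.166 (0.151 to 0.182) in MASH 2. The MASH ratios were thus below all chow ratios, and Chow 3 was 5.51 times Chow 2 and 7.25 times Chow 1, a larger step than that from Chow 1 to MASH 1 (2.75-fold). Intervals cover counting error only, and no test was made of a ratio over members.

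The same order of Chow 3 over the other libraries was seen in the other lineages at much lower counts. In endothelial-like nuclei the ratio was 4.0 (1.46 to 13.6) in Chow 3 and 0.971 to 2.33 in the other libraries. In stellate-like nuclei it was 9.33 (2.88 to 48.0) in Chow 3 and 0.619 to 2.22 elsewhere. In immune-like nuclei Chow 3 held 11 Arntl and 1 Dbp UMIs, a ratio of 11.0 (1.60 to 473), against 0.892 to 1.57 elsewhere. In each of these lineages the counting interval of Chow 3 overlapped that of at least 1 other library, and the part of the hepatocyte RNA they hold in these ratios was not tested. Between the diets, apart from Chow 3, these lineages showed overlapping ratios.

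**Figure D2:**
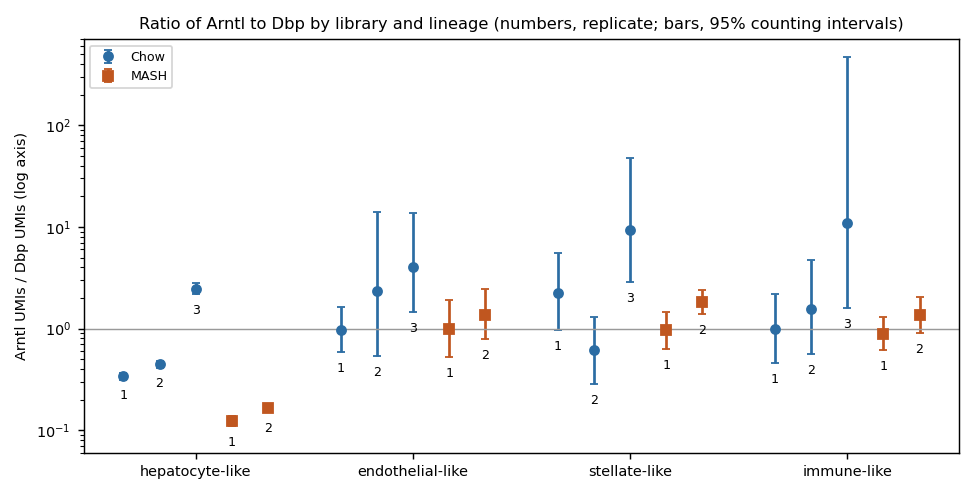
Ratio of Arntl to Dbp UMIs (log axis) in each lineage, with 1 point per library (circles, chow; squares, MASH; the number is the replicate) and 95% exact binomial counting intervals as bars. Chow 3 has the highest ratio in all 4 lineages, and the MASH libraries lie below all chow libraries in hepatocyte-like nuclei.

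Other parts of the clock gave calls in both directions. Of 13 other clock genes, 2 rose and 1 fell in hepatocyte-like nuclei of MASH mice (edgeR, adjusted p under 0.05), beside 8.8% of all genes higher and 4.44% lower. Csnk1e, a kinase that marks PER proteins for turnover, stood at 12.9, 16.3, 14.1, 31.7 and 33.1 CPM and rose by 1.17 ± 0.22 (SE, log2, adjusted p = 0.0208). Btrc, a ubiquitin ligase subunit that acts on phosphorylated PER, stood at 30.3, 35.4, 20.2, 66.8 and 61.3 CPM and rose by 1.16 ± 0.28 (adjusted p = 0.0376). Nfil3, a repressor that competes with DBP and TEF for D-boxes, stood at 93.8, 37.4, 131, 22.5 and 19.9 CPM and fell by 2.05 ± 0.51 (adjusted p = 0.0425). Among the chow libraries Nfil3 was highest where Dbp was lowest, in Chow 3, but it was also high in Chow 1, the chow library with the most Dbp. The median change of the 13 genes was 0.26, beside -0.02 for all genes.

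Of 11 rhythmic output genes of the liver, 1 rose and 2 fell, beside the same 8.8% and 4.44% of all genes. Wee1, a cell-cycle kinase gene with E-box control, stood at 4.07, 4.64, 2.32, 15.8 and 13.5 CPM and rose by 1.99 ± 0.35 (SE, log2, edgeR adjusted p = 0.0174). Elovl3, a fatty acid elongase, fell by 3.18 ± 0.26 (adjusted p = 0.00203), from 114 to 144 CPM in chow to 13.4 and 14.1 CPM in MASH. Noct, which encodes the rhythmic phosphatase nocturnin, stood at 201, 443, 662, 93.1 and 93.4 CPM and fell by 2.22 ± 0.51 (adjusted p = 0.0346). The 11 genes had a median change of -0.69, beside -0.02 for all genes.

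Of 15 genes that glucocorticoid, temperature or feeding drives, 1 rose and 3 fell, beside 8.8% and 4.44% of all genes, with a median change of -1.32 beside -0.02 for all genes. Fkbp5, a target of the glucocorticoid receptor, stood at 101, 222, 264, 25.9 and 55.8 CPM and fell by 2.26 ± 0.52 (SE, log2, edgeR adjusted p = 0.0347). Hspa8 and Hsph1, which encode chaperones, fell by 1.85 ± 0.39 (adjusted p = 0.0263) and 1.85 ± 0.44 (adjusted p = 0.0374). Srebf1, the lipogenic factor, rose by 2.62 ± 0.32 (adjusted p = 0.00604). Fkbp5, Noct and Hspa8 had the order of Per1 over the chow libraries, lowest in Chow 1 and highest in Chow 3, which was noticed after the values were seen. Lpin1 and Igfbp1 were likewise singled out afterwards, since each was high in 1 chow library, Lpin1 in Chow 2 (1439 CPM against 218 and 285) and Igfbp1 in Chow 3 (1185 CPM against 162 and 148). The part of feeding state, glucocorticoid or acute-phase response in the clock genes' values was not tested.

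The calls of these 10 named list genes also depended on the libraries. Without Chow 3 all 10 were called by edgeR, with changes of -3.09 for Elovl3 to 2.36 for Srebf1. Without Chow 1 the call of Nfil3 was lost (edgeR adjusted p = 0.0603). Without Chow 2 those of Btrc, Noct, Fkbp5, Hspa8 and Hsph1 were lost (edgeR adjusted p of 0.0586 to 0.0826). Without MASH 1, as without MASH 2, only Elovl3 and Srebf1 of the 10 remained called. Without Chow 3, 2 of the 13 other clock genes rose and 2 fell, 1 of the 11 output genes rose and 4 fell, and 2 of the 15 driven genes rose and 4 fell.

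**Figure D3:**
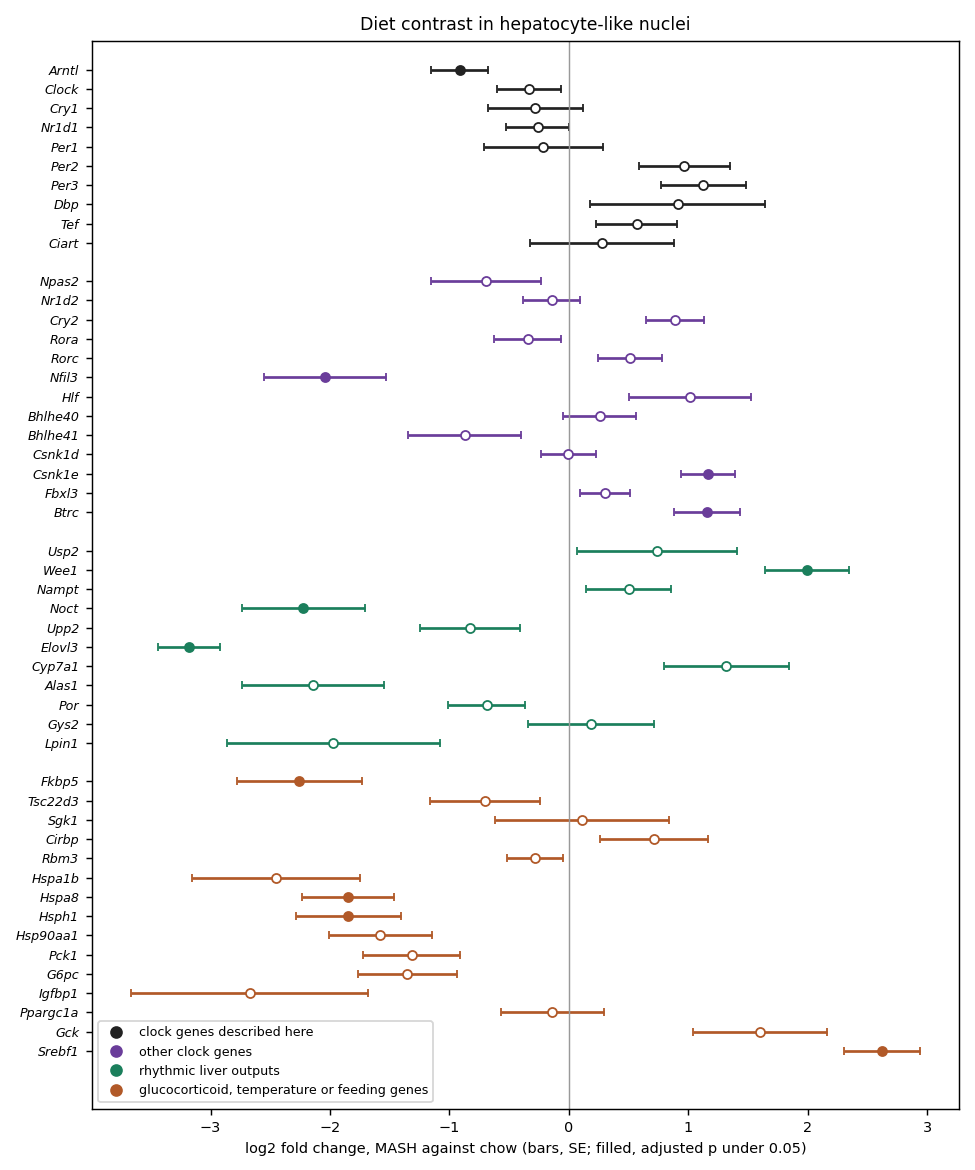
Log2 fold change of MASH against chow in hepatocyte-like nuclei (x axis) for the 10 clock genes and the genes of 3 further lists, with standard errors as bars and filled points for an edgeR adjusted p under 0.05. Of the 10 clock genes Arntl alone is filled, while Per2, Per3 and Dbp lie near 1 and are open.

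Levels by lineage were compared as CPM of each lineage's own UMIs without further scaling. Nr1d1, Per3 and Tef were highest in hepatocyte-like nuclei in all 5 libraries. Tef ran from 112 to 420 CPM there and from 19.3 to 115 CPM in the other lineages, and within a library it was 3.17 to 4.99 times their mean. Nr1d1 was 2.07 to 3.62 times and Per3 1.36 to 4.77 times the mean of the other lineages. Dbp was highest in hepatocyte-like nuclei in 4 libraries, and in Chow 3 it was 9.12 CPM there against 1.78 to 10.7 CPM in the others.

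Per2 was highest in hepatocyte-like nuclei in 4 libraries and Ciart in 3. Arntl was not highest in hepatocyte-like nuclei in any library, and was lowest there in 2. Its means over the 5 libraries were 153% of the hepatocyte-like mean in endothelial-like, 132% in stellate-like and 111% in immune-like nuclei, with ranges of 26.8 to 53.9, 15.4 to 59.4 and 19.6 to 37.8 CPM that overlap 17.6 to 40.7 CPM in hepatocyte-like nuclei. Clock, Cry1 and Per1 likewise overlapped between lineages. For Dbp, Tef, Per2 and Per3 the means in the other lineages were 21.9% to 43.3% of the hepatocyte-like mean, and their ranges overlapped each other, so no order among those 3 lineages could be given.

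Hepatocyte RNA was present in every lineage, and its part in these levels was not tested. All 6 hepatocyte markers had UMIs in all 3 other lineages, and none of those markers was at 0. Their summed level was 6870 to 22900 CPM in the other lineages of chow and 3680 to 10700 CPM in MASH, against 9510 to 14300 and 4690 to 5930 CPM in hepatocyte-like nuclei. Hnf4a averaged 25.1%, 36.2% and 34.8% of its hepatocyte-like level in endothelial-like, stellate-like and immune-like nuclei. The other hepatocyte markers averaged 56.3% to 253% of theirs. Dbp, Tef and Per3 averaged 21.9% to 40.6% of their own hepatocyte-like levels. Expression of Dbp, Tef and Per3 by these lineages and hepatocyte RNA in their sums therefore cannot be told apart here. Conversely, Ptprc, the pan-leukocyte gene, was at 1.62 to 2.53 CPM in hepatocyte-like nuclei of chow and 16.0 to 18.2 CPM in MASH. The summed stellate markers there were at 39.7 to 43.3 and 74.5 to 84.1 CPM, the cholangiocyte markers at 33.1 to 77.5 and 226 to 277 CPM, and the part of these in the diet contrast was not tested. Median mitochondrial shares of the other lineages were 1.42% to 12.4% over libraries and those of hepatocyte-like nuclei 0.484% to 2.94%.

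**Figure D4:**
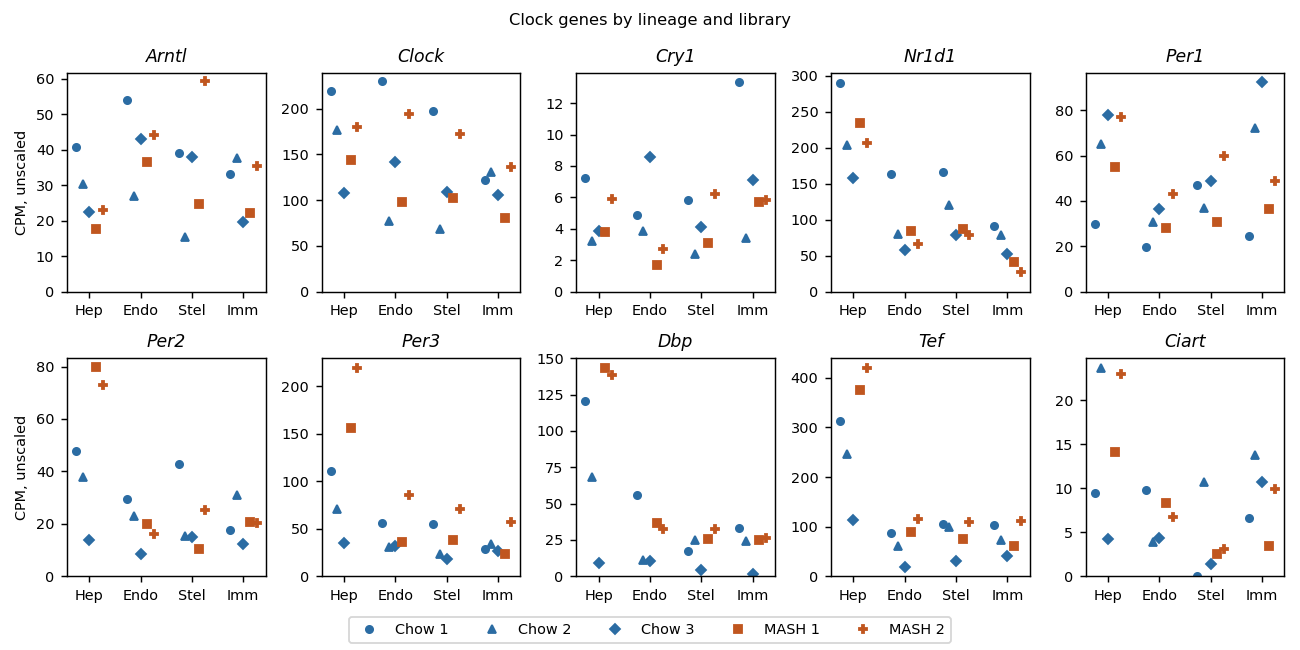
Levels of the 10 clock genes as unscaled CPM (linear axis from 0) in hepatocyte-like (Hep), endothelial-like (Endo), stellate-like (Stel) and immune-like (Imm) nuclei, with 1 symbol per library. Tef and Nr1d1 are highest in hepatocyte-like nuclei of every library, whereas Arntl, Clock, Cry1 and Per1 overlap between lineages.

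The diet contrast gave no call for a clock gene outside hepatocyte-like nuclei. Cry1 and Ciart did not pass the filter on low counts there, and the other 8 were tested. In endothelial-like nuclei edgeR called none of the 8 beside 0.929% of all genes, and none had an unadjusted p under 0.05. In stellate-like nuclei it called none beside 0.227%, and none had an unadjusted p under 0.05. In immune-like nuclei it called none beside 1.8%, and Nr1d1 had an unadjusted edgeR p of 0.0185 across 8550 genes (adjusted p = 0.203). DESeq2 called none in any of the 3 lineages. The precision is limited by depth, since Arntl rested on 7 to 33 UMIs a library in endothelial-like, 13 to 153 in stellate-like and 11 to 61 in immune-like nuclei.

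For Arntl the MASH libraries did not both lie below all chow libraries in the other lineages. The direct test given below called no difference from hepatocyte-like nuclei. Arntl stood at 48.2, 31.8, 45.6, 42.0 and 40.1 TMM-scaled CPM in endothelial-like, at 34.5, 17.8, 41.0, 27.9 and 53.6 CPM in stellate-like and at 31.5, 43.2, 21.3, 25.2 and 32.9 CPM in immune-like nuclei. The diets overlapped in all 3, with log2 changes of -0.08 ± 0.37, 0.41 ± 0.46 and -0.07 ± 0.39 (SE). Nr1d1 in immune-like nuclei stood at 86.1, 90.2, 56.0, 47.8 and 25.4 CPM, with both MASH libraries below all chow libraries and a log2 change of -1.05 ± 0.38. Hepatocyte markers in immune-like nuclei were mixed. Hnf4a there was at 75.5, 199 and 127 CPM (unscaled) in chow and at 43.7 and 37.9 CPM in MASH. Cps1 and Fgb were likewise lower in both MASH libraries than in any chow library. Alb, Apob and Ttr overlapped between the diets. In hepatocyte-like nuclei Hnf4a fell too, from 272 to 398 CPM (unscaled) in chow to 164 and 161 CPM in MASH. The Nr1d1 level in immune-like nuclei averaged 26.6% of the hepatocyte-like level, below the 34.8% of Hnf4a. The part of hepatocyte RNA in its fall was not tested, and expression by immune cells cannot be told apart from it. The make-up of the immune-like nuclei also differed between libraries. Macrophage-like nuclei numbered 96, 100 and 164 of 425, 202 and 339 immune-like nuclei in chow. In MASH they numbered 1052 and 920 of 2090 and 1397. Neutrophil nuclei numbered 169 in Chow 1 and 0 to 2 in the other libraries. In macrophage-like clusters alone no clock gene was called, and 1 had an unadjusted p under 0.05. Sums over nuclei cannot tell fewer expressing nuclei from less RNA per nucleus, and counts per nucleus were not examined for this.

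Whether the diet change of a clock gene differed between lineages was tested directly, with the library as a block, so that the lineages compared came from the same liver or livers. No gene passed in any of the contrasts of endothelial-like, stellate-like and immune-like against hepatocyte-like nuclei, beside 3.38%, 4.56% and 4.82% of the 11918 genes tested. Of the 9 clock genes in this fit, all but Cry1, an unadjusted edgeR p under 0.05 was found for 1, 2 and 3 in the respective contrasts. The nearest were Per2, whose log2 change was lower in stellate-like nuclei by -1.49 ± 0.46 (SE, edgeR adjusted p = 0.0689), and Arntl, whose change there was higher by 1.20 ± 0.40 (adjusted p = 0.106). Each crossed the threshold when a single chow library was left out, Per2 without Chow 2 (adjusted p = 0.0296) and Arntl without Chow 3 (adjusted p = 0.0371). DESeq2 was not run for this term.

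Zonation offers a comparison within each library, in which both sides come from the same liver or livers. Hepatocyte-like nuclei of each library were ordered by their pericentral marker score less their periportal one and cut into 3 equal parts, of which the outer ones were compared with the library as a block. Of the 10 genes, 2 passed edgeR's test beside 19.8% of all genes. Per1 was lower in the pericentral part of all 5 libraries, by -0.21 ± 0.06 (SE, log2, adjusted p = 0.0359). Its periportal and pericentral levels were 30.2 and 25.8 CPM in Chow 1, 70.9 and 62.3 in Chow 2, 108 and 95.1 in Chow 3, 57.1 and 44.2 in MASH 1, and 69.7 and 64.4 in MASH 2. Cry1 was also lower in the pericentral part of all 5 libraries, by -0.81 ± 0.23 (adjusted p = 0.0424). Its levels were 12.2 and 3.56 CPM in Chow 1, which differed most, and 3.61 and 2.76 in Chow 2, 5.89 and 4.32 in Chow 3, 4.77 and 2.42 in MASH 1, and 6.82 and 5.31 in MASH 2.

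Both zone calls depended on single libraries. Leaving out any 1 library ended the call of Per1 (adjusted p of 0.0544 to 0.110), and only without MASH 2 did Cry1 keep its call (0.0481, against up to 0.10 otherwise). Per2 was lower in the pericentral part of 5 of 5 libraries with a change of -0.25 ± 0.09 (edgeR adjusted p = 0.0801), and Dbp was higher there in 5 of 5 with 0.16 ± 0.06 (adjusted p = 0.111). The zone differences of Dbp and Per1 were small beside the step between Chow 1 and Chow 3. Dbp was 10.1 and 13.0 CPM in the outer parts of Chow 3 against 113 and 121 CPM in those of Chow 1. The low Dbp of Chow 3 was thus present in both parts. Arntl, Clock, Nr1d1, Per3, Tef and Ciart had changes of -0.34 to 0.14 and were not called.

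**Figure D5:**
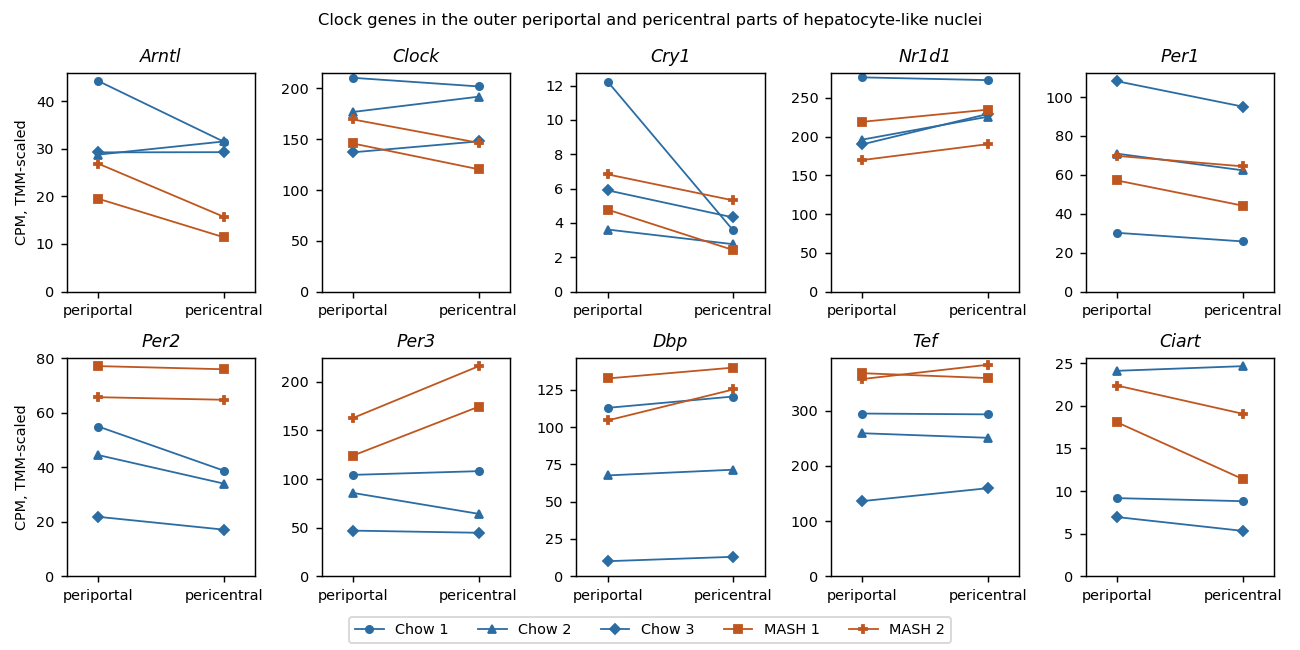
TMM-scaled CPM of the 10 clock genes in the periportal and pericentral parts of hepatocyte-like nuclei, with 1 line per library. Lines for Cry1 and Per1 go down and lines for Dbp go up from periportal to pericentral in all 5 libraries, while the gaps between libraries are wider than the slopes for Dbp, Tef and Per2.

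The genes most like Arntl and Dbp over the 5 libraries were looked up on log2(CPM + 1) in hepatocyte-like nuclei, centred per gene, among genes averaging at least 10 CPM. The nearest to Arntl of 8812 genes were Sorbs3, Atg9a and Clcn2, at root mean square distances of 0.04, 0.05 and 0.06. Clock ranked 739 (0.29) and Nr1d1 1517 (0.35), while Dbp ranked 8647 (1.46). The nearest to Dbp were Vwce, Hsd3b3 and Slc40a1, at 0.14, 0.15 and 0.23. Per2, Per3 and Tef ranked 105, 203 and 405 (0.63 to 0.81), and Per1 ranked 7878 (1.74). With 5 libraries these distances only describe how close the centred levels lie, which depends on the size of the changes as well as their order.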

How the data were processed

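RNA of sorted liver nuclei was measured in 3 chow and 2 MASH libraries, grouped by their titles. The authors made droplet-based 3-prime libraries, and their deposited files give unnormalised UMI counts for each gene in each barcode, made with Cell Ranger 8.0.1 (submitters' processing notes, build GRCm38). According to the methods of the study, intronic reads were left out of the counts. The 10 genes, the 3 further lists and the tests were chosen with earlier results of these data known.

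Nuclei with fewer than 300 genes were removed. Scrublet in scanpy 1.11.5 called at most 3 doublets a library by its own threshold, so the highest scores were removed at 0.8% per 1000 nuclei, which left 7969, 11574, 10012, 11508 and 10407 nuclei. Clustering without integration used 2983 variable genes (clock and list genes left out), 15 components and a Leiden resolution of 1, and nuclei not hepatocyte-like were clustered again at 0.5. Clusters were named from marker lists by thresholds set after the clusters were seen. Hepatocyte-like clusters needed an Hnf4a level at least 0.5 higher (log2) than named nuclei of other classes. The names may differ from those of the study for that reason.

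UMIs were summed per library and lineage (at least 20 nuclei) and compared by quasi-likelihood tests in edgeR 4.0.16 under R 4.3.3 (TMM, filterByExpr, two-sided, Benjamini-Hochberg over all genes tested, adjusted p under 0.05), which was tested on simulated data first. The standard error was the log2 change over the square root of F. Lineage and zone tests used the library as a block. All 10 clock genes were named. Genes of the 3 lists were named if they passed in hepatocyte-like nuclei, at most 6 a list by adjusted p. Alternatives were size factors by relative log expression (RLE), DESeq2 1.42.0, no filter, Storey q-values, a replicate block, each library left out, doublets kept, 1-gene gates, macrophage-like clusters alone, all barcodes and, added later, library totals alone and chow ranges without Chow 3.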

Additional observations from a re-analysis of the deposited data

How the results depend on the processing

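The count of clock genes called in hepatocyte-like nuclei was 1. It was 2 (Arntl and Per3) with DESeq2, with no filter on low counts and with Storey q-values, and 0 with library totals alone. Leaving out each library gave 0 to 1, and where 1 MASH library was left its spread was assumed to be that of the chow libraries. Storey q-values called 1 gene (Arntl) over all nuclei, against 0. Leaving out each library gave 0 to 1 calls against 0 for the difference of diet changes between lineages, and 0 to 1 against 2 for the zones. The cause of these moves was not tested. Library totals alone turned the sign of Per1 (0.20), Cry1 (0.015) and Nr1d1 (0.020) in hepatocyte-like nuclei, and leaving out Chow 3 that of Per1 (0.21, in a range of -0.59 to 0.21 over the libraries left out) and Ciart (-0.12, in a range of -0.12 to 1.13), as did leaving out MASH 2 for Ciart (-0.041). Of all values recomputed, 186 kept their direction and their side of the threshold or stayed within the spread, among them counts of calls that stayed at 0. Of the rest, 16 counts of calls moved, 7 changes turned sign, 6 lost a call and 4 gained one. DESeq2 called 3399 genes in hepatocyte-like nuclei and Storey q-values 3850, against 1969. Leaving out a library gave 141 to 2876 of these calls.

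The replicate numbers were shared by chow and MASH in the labels, and the fit with a replicate block called 0 clock genes in hepatocyte-like nuclei and turned Per1 to 0.38. It called 1803 genes there, 8 against 81 in endothelial-like, 38 against 22 in stellate-like and 397 against 154 in immune-like nuclei. Deviations of same-numbered libraries from their group means correlated between -0.43 and -0.01, so the libraries were taken to share only a number.

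Precision outside hepatocyte-like nuclei is limited by depth, with 1 to 443 UMIs per clock gene and library where a UMI was found. Collection hour and diet cannot be told apart, and with 3 against 2 libraries log2 changes of 1.12 (Per3) and 0.97 (Per2), larger in size than that of Arntl (-0.91), were not called.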
